A study of Homo sapiens with 2 samples.

Results

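The insulin-like growth factor (IGF) binding proteins IGFBP1 to IGFBP7 were followed in single-cell RNA-seq data of human colon organoids. The members were the 7 genes with these symbols among the 36601 genes listed in each library. They were taken by symbol, with earlier results of these data known. The organoids came from the established human iPS cell line 1383D6, which is a line of reprogrammed pluripotent cells. The library CNT holds organoids with no added cytokine, and the library 3CK organoids kept for 8 days with the inflammatory cytokines IL-1β, TNF-α and IFN-γ. Both had been differentiated with Activin A and FGF2, then embedded in Matrigel with EGF, Forskolin, PD98059, 5-Aza-2'-Deoxycytidine (an inhibitor of DNA methylation) and A-83. Each group is 1 library of 1 line, and the series title names an ulcerative colitis model, after an inflammatory disease of the colon. The cytokine doses are not stated in the labels. No difference below has a replicate check or a test. The 95% intervals of levels and ratios cover counting error of unique molecular identifiers (UMIs, 1 per captured transcript). They leave out the spread between cells, and no interval covers the spread between cultures.

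IGF1 and IGF2 are secreted growth factors that act through the receptor IGF1R. IGFBP1 to IGFBP6 bind them with high affinity outside the cell, which can hold them away from the receptor or store and deliver them. IGFBP7 binds IGFs weakly and is better known as a protein of the matrix and of vessel walls. Proteases such as pregnancy-associated plasma protein A (PAPPA, which cuts IGFBP4 and IGFBP5) release the bound growth factor. In the gut wall, IGFs and several of the binding proteins are produced largely by fibroblasts and smooth muscle beneath the epithelium.

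In GRCh38, with GENCODE annotation, 4 of the 7 genes lie in 2 tail-to-tail pairs. IGFBP1 (chr7:45888360-45893660, plus strand) and IGFBP3 (chr7:45912245-45921874, minus strand) are 18584 bases apart. IGFBP2 (chr2:216632828-216664436, plus strand) and IGFBP5 (chr2:216672105-216695549, minus strand) are 7668 bases apart. IGFBP4 is at chr17:40443450-40457725 (plus strand), IGFBP6 at chr12:53097436-53102345 (plus strand) and IGFBP7 at chr4:57030773-57110385 (minus strand).

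The upstream sequences of the 3 members that differed most between the libraries over all cells are shown because they differ in direction: IGFBP3 and IGFBP5 were lower and IGFBP4 was higher in 3CK. RefSeq windows (GRCh38.p14) were found for 5 of the 7 members, and IGFBP1 and IGFBP7 had no entry. Each line gives the 250 bases before the RefSeq start, 5′ to 3′ on the gene's strand. For IGFBP3 this start differs from the GENCODE one, and its window lies within the GENCODE gene given above. The IGFBP4 and IGFBP5 windows border their GENCODE starts. Capitals mark a match to a TATA box (TATAAA or TATATA) or to an NF-kB consensus, whose letters are not listed here and may be looser than other forms of it.
IGFBP3, chr7:45921273-45921522, minus strand: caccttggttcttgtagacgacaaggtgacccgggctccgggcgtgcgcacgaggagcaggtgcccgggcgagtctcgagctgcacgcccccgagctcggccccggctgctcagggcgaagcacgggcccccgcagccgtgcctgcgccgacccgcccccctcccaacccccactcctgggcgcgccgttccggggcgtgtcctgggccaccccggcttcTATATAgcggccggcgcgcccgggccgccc
IGFBP4, chr17:40443200-40443449, plus strand: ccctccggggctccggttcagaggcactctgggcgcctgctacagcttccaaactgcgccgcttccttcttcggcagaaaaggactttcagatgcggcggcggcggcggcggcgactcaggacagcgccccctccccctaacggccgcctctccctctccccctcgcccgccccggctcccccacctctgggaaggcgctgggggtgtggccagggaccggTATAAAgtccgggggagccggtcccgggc
IGFBP5, chr2:216695550-216695799, minus strand: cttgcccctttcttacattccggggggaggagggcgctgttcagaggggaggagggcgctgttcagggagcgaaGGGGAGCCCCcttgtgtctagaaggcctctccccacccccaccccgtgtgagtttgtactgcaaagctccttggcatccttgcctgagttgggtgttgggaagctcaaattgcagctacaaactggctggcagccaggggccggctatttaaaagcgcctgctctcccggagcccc

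The IGFBP3 window holds a TATA match 30 bases before its RefSeq start, and the IGFBP4 window holds one 29 bases before its own. TATA matches were present on either strand in 12.8% of the 35114 windows of the whole table. The IGFBP5 window has no TATA match and carries an NF-kB match 176 bases before the start, a motif found in 5.21% of all windows. The same consensus matched in the IGFBP6 window and in 1 of the 3 windows of IGFBP2. No window of these 5 members matched the interferon-gamma element GAS (TTCNNNGAA, in 6.57% of all windows), the interferon element ISRE (GAAA, any 2 bases, GAAA, in 3.02%) or the hypoxia core ACGTG (in 18.5%), searched on both strands. The GC content was 76% for IGFBP3, 71.6% for IGFBP4 and 61.2% for IGFBP5, beside a median of 58% over all windows. A match is a description of these letters and not a binding site.

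After filtering, CNT held 2487 cells with 101831571 UMIs and 3CK 1398 cells with 91860414 UMIs, with medians of 28911 and 62746 UMIs per cell. No barcode was shared. Cells were classed as epithelial (EPCAM, an epithelial adhesion molecule, at 2 or more UMIs per 10000) or as mesenchymal (COL1A1, COL1A2 and COL3A1, fibrillar collagens of stromal cells, together at 5 or more per 10000 with EPCAM under 1). Although the sample titles name epithelial cells, the mesenchymal class made up 574 cells in CNT (23.1%, interval 21.4 to 24.8) and 124 in 3CK (8.87%, 7.43 to 10.5). The epithelial class held 1660 and 1016 cells, and 253 and 258 cells fell in neither class. The mesenchymal class was not free of epithelial keratin transcripts. In CNT its KRT8 and KRT18 were at 3217 and 4930 counts per 1000000 (CPM), beside 3111 and 4303 CPM in the epithelial class. In 3CK they were at 4023 and 6968 CPM, beside 7117 and 10938 CPM. CDH1, another epithelial marker, was at 14.9 CPM beside 138 CPM in CNT, and at 7.57 CPM beside 251 CPM in 3CK. In the epithelial cells 7 enterocyte markers summed to 6347 CPM in CNT and 2055 CPM in 3CK, mostly APOA4 (4934 and 1860 CPM). Of the 7, 6 reached 10 CPM in CNT and 4 in 3CK, where RBP2 was at 1.20 CPM and SI at 0.76 CPM. The same cells carried hepatic-type secretory transcripts at 98726 and 32940 CPM, mostly TTR, the carrier transthyretin. Of 7 endothelial markers, 2 (PECAM1 and EGFL7) reached 10 CPM over all kept cells of each library, and the list summed to 91.8 CPM (CNT) and 102 CPM (3CK). The more restricted markers CDH5 and VWF were each under 2 CPM over all kept cells, but reached 6.82 and 5.99 CPM in the cells of neither class in CNT. Of 7 leukocyte markers 1 (CD68) reached 10 CPM over all kept cells, and the list summed to 43.3 and 67.9 CPM. PTPRC, the common leukocyte antigen, was under 1 CPM over all kept cells and at 3.62 CPM in the mesenchymal cells of 3CK, where the list summed to 108 CPM beside 40.9 CPM in those of CNT. The part of such cells in the differences below was not tested.

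Over all kept cells, the IGFBP transcripts together made up 1419 CPM in CNT and 912 in the 3CK library. IGFBP3, the main carrier of IGFs in blood, was the most abundant member in CNT and was lower in 3CK, as was IGFBP5, a matrix-associated member. IGFBP4, an inhibitory member cleaved by PAPPA, was higher in 3CK. The other 4 members differed by at most 1.25-fold. A level in CPM is a gene's UMIs per 1000000 UMIs, and a 3′ tag counts each molecule once whatever its length, so levels are compared between genes without a length correction.

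IGFBP3 measured 689 CPM (interval 684 to 694) in CNT and 218 CPM (215 to 221) in 3CK, which is 3.15-fold lower (log2 ratio -1.66, interval -1.68 to -1.64). IGFBP5 measured 37.7 CPM (36.5 to 38.9) and 10.4 CPM (9.76 to 11.1), which is 3.62-fold lower. IGFBP4 measured 34.6 CPM (33.4 to 35.7) and 93.0 CPM (91.1 to 95.0), which is 2.69-fold higher. For these 3 genes the counting intervals of the libraries do not overlap.

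IGFBP2, a member common in embryonic tissue, measured 193 CPM in CNT against 212 CPM in 3CK (log2 ratio 0.13). IGFBP6, which prefers IGF2, was at 247 and 203 CPM (-0.28). IGFBP7 was at 217 and 174 CPM (-0.31). IGFBP1, the liver and decidua member, rested on 89 UMIs in CNT and 64 in 3CK, and its ratio of -0.33 has an interval from -0.81 to 0.15 that includes no difference.

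The order of levels in CNT was IGFBP3, IGFBP6, IGFBP7, IGFBP2, IGFBP5, IGFBP4 and IGFBP1. In 3CK it was IGFBP3, IGFBP2, IGFBP6, IGFBP7, IGFBP4, IGFBP5 and IGFBP1, and in both orders the counting intervals of neighbours with at least 10 CPM do not overlap, the closest pair being IGFBP3 and IGFBP2 in 3CK. IGFBP3 supplied 48.5% of the family's UMIs in CNT and 23.9% in 3CK, while IGFBP4 supplied 2.44% and 10.2%. Of the 6 members that reached 10 CPM in either library, 1 was at least 2-fold higher and 2 at least 2-fold lower in 3CK. Among the 10259 genes at that level, 6.43% were at least 2-fold higher and 7.34% at least 2-fold lower.

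**Figure D1:**
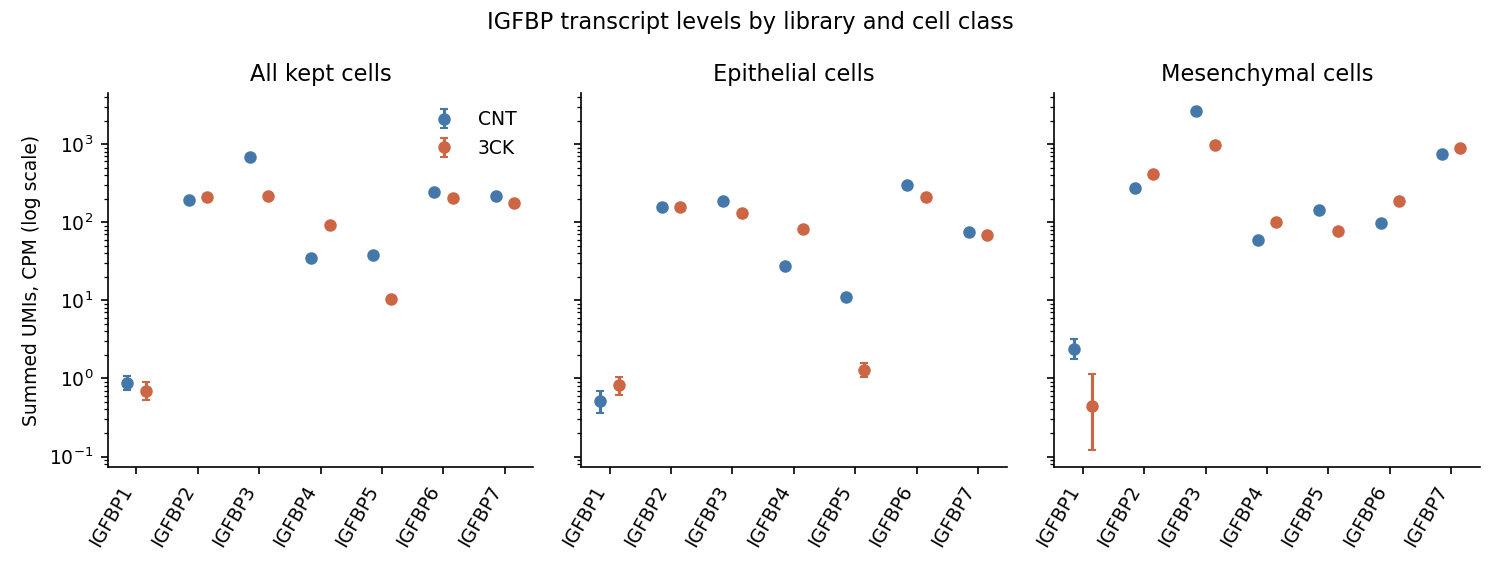
Summed UMIs of the 7 IGFBP genes in CPM (log axis) in CNT and 3CK, over all kept cells, epithelial cells and mesenchymal cells, with 95% Poisson counting intervals and 1 library per point. IGFBP3 and IGFBP7 stand highest in the mesenchymal cells (2670 and 757 CPM in CNT), IGFBP6 is the highest member in the epithelial cells, and IGFBP1 is the lowest member in each panel.

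The classes differed in which member they carried. In CNT, mesenchymal cells held 4001 CPM of the family and epithelial cells 757 CPM. In 3CK the values were 2649 and 646 CPM. In both libraries IGFBP3, IGFBP5 and IGFBP7 were higher in mesenchymal cells by 7.48-fold or more. IGFBP6 was the only one of the 6 members at 10 CPM or more that was lower there, although in 3CK its direction turned with the mean of per-cell CPM (log2 0.04) and with mesenchymal cells drawn by other markers (0.05).

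IGFBP3 was at 2670 CPM in mesenchymal and 189 CPM in epithelial cells of CNT, a 14.1-fold difference. In 3CK it was at 969 and 130 CPM, a 7.48-fold difference. The IGFBP3 excess of mesenchymal over epithelial cells was therefore log2 3.82 in CNT and 2.90 in 3CK.

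IGFBP7 was at 757 CPM in mesenchymal and 74.6 CPM in epithelial cells of CNT (10.1-fold). In 3CK it was at 897 and 68.6 CPM (13.1-fold). IGFBP5 was at 143 and 11.1 CPM in CNT (12.9-fold) and at 77.9 and 1.28 CPM in 3CK (60.7-fold). Mesenchymal cells thus held the higher level of these members in each library.

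IGFBP6 had the opposite placement in CNT, with 98.2 CPM in mesenchymal and 298 CPM in epithelial cells (log2 -1.60). In 3CK its levels were 186 and 207 CPM, and the log2 ratio was -0.15 (interval -0.23 to -0.08). IGFBP2 was at 271 and 157 CPM in CNT (log2 0.79) and at 418 and 157 CPM in 3CK (1.41). IGFBP4 was at 58.8 and 27.4 CPM in CNT (1.10), and at 100 and 81.6 CPM in 3CK (0.30), so the 2 classes were closest in IGFBP4 and IGFBP6 in the treated library.

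Against the background, 4 of 6 members were at least 2-fold higher in mesenchymal cells in CNT and 1 was at least 2-fold lower. IGFBP4 is the member nearest to that margin: it fell short of it with TMM factors (log2 0.72), with a total without mitochondrial, ribosomal and the 50 most abundant genes (0.99) and with the mean of per-cell CPM (0.98), which leaves 3 of 6. Of the 10891 genes tested there, 21.1% were higher and 12.2% lower by that margin. In 3CK, 4 of 6 members were at least 2-fold higher and 0 lower, beside 15% and 13.3% of 10317 genes. The members' median log2 ratio was 2.22 in CNT and 2.16 in 3CK, and the median over all genes tested was 0.28 and 0.07.

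Transcripts from lysed cells reach every droplet, which limits the low values. TTR, an epithelial transcript here, was seen in 97.8% of CNT mesenchymal cells after each cell was thinned to 5000 UMIs, and its level there was 2.17% of the epithelial level. COL1A1 in epithelial cells was at 3.97% of its mesenchymal level in CNT and 1.44% in 3CK. IGFBP3 in epithelial cells was at 7.07% of its mesenchymal level in CNT and 13.4% in 3CK, above the collagen in both. LUM, a proteoglycan gene of stromal cells, was at 10.1% in CNT, above IGFBP3, and at 4.94% in 3CK, below it. IGFBP5 was at 7.77% and 1.65%, between COL1A1 and LUM in both libraries.

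The epithelial class of CNT also held 497 cells that carried the 3 collagens at 5 or more per 10000, against 49 in 3CK. Only 70 of these in CNT and 13 in 3CK had at least 10000 UMIs. In shallower barcodes a few stray collagen UMIs can pass the rule, so these counts are not read as shares of cells that make collagen. Without them, epithelial COL1A1 was at 0.77% of its mesenchymal level in CNT, and IGFBP3 was at 4.68%, IGFBP5 at 5.08% and IGFBP7 at 6.21%. COL1A2 was at 1.25%, COL3A1 at 1.05% and DCN at 0.95% there, all below these 3 members, and only LUM, at 7.34%, was above them. The low values of the 3 collagens are set in part by the rule that removed the cells, which does not use DCN or LUM. How much of these epithelial levels comes from lysed cells was not tested. The epithelial IGFBP3 level without these cells was 124.9 CPM in CNT and 125.9 CPM in 3CK. Outside the collagen-bearing cells the epithelial IGFBP3 levels of the libraries were thus nearly equal (log2 0.01).

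**Figure D2:**
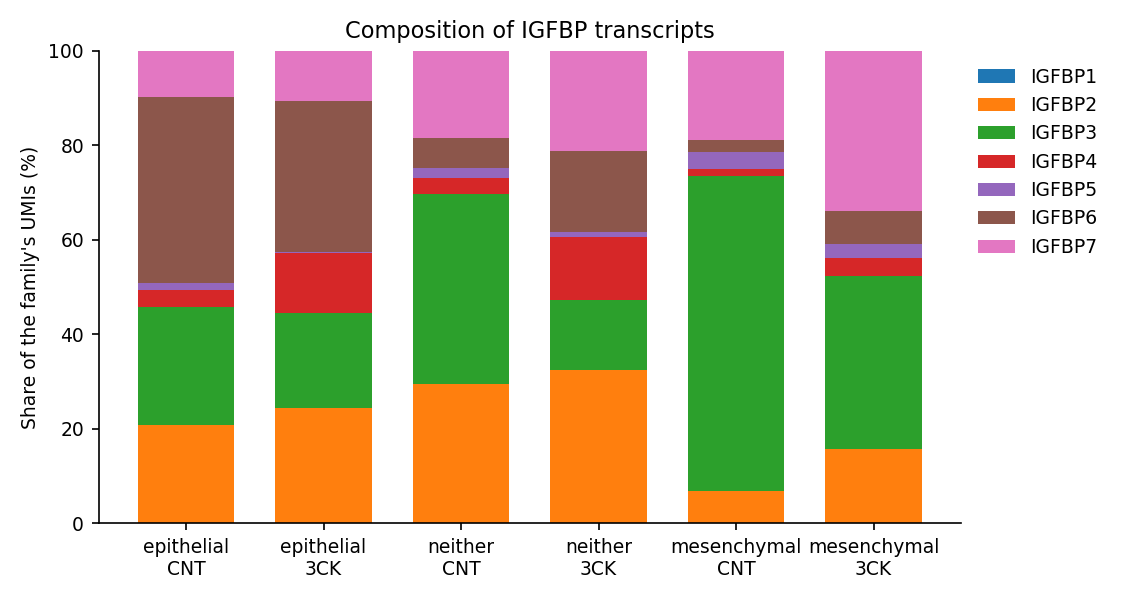
Share of the summed IGFBP UMIs (%) contributed by each member, for epithelial cells, cells of neither class and mesenchymal cells of CNT and 3CK; each bar is 1 library and class. IGFBP3 takes 66.7% of the mesenchymal bar in CNT and 36.6% in 3CK, and IGFBP4 takes 3.62% and 12.6% of the epithelial bars; IGFBP1 is too rare to be visible.

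In the epithelial cells the largest differences between the libraries were in IGFBP4 and IGFBP5. IGFBP4 was at 27.4 CPM in CNT (2086 UMIs) and 81.6 CPM in 3CK (5718 UMIs), 2.98-fold higher (log2 1.57, interval 1.50 to 1.65). IGFBP5 was at 11.1 and 1.28 CPM, 8.66-fold lower (log2 -3.11, -3.44 to -2.80). That ratio rests on few cells. Among epithelial cells with at least 10000 UMIs, 90.7% in CNT and 96.6% in 3CK held no IGFBP5 UMI. Single cells reached 3689 CPM in CNT and 419 CPM in 3CK. IGFBP5 without the collagen-bearing cells was at 7.28 and 1.28 CPM, so it stayed lower in 3CK but was then under 10 CPM in both libraries.

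IGFBP6, the most abundant epithelial member, was at 298 CPM in CNT against 207 CPM in 3CK (log2 -0.53, interval -0.56 to -0.49). IGFBP3 was at 189 and 130 CPM (-0.54), a difference carried by the collagen-bearing cells as given above. IGFBP2 was at 156.9 and 156.8 CPM (0.00, interval -0.04 to 0.04). IGFBP7 was at 74.6 and 68.6 CPM (-0.12), and without the collagen-bearing cells it was at 47.0 and 67.2 CPM (0.52), which turns its direction.

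IGFBP1 in epithelial cells came from 39 UMIs in 20 cells of CNT and 57 UMIs in 12 cells of 3CK, of which a single cell gave 24. Its level therefore rests on few cells in both libraries. Of the 6 members tested in epithelial cells, 1 was at least 2-fold higher in 3CK and 1 at least 2-fold lower, beside 7.88% and 7.62% of 9786 genes. The members' median log2 ratio was -0.32 and that of all genes tested 0.07.

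The share of epithelial cells with an IGFBP4 UMI, after thinning to 5000 UMIs, was 9.60% of 1062 cells in CNT (7.90 to 11.5) and 25.3% of 776 cells in 3CK (22.2 to 28.5). For IGFBP6 the shares were 52.7% (49.7 to 55.8) and 42.9% (39.4 to 46.5). COL1A1, a gene that epithelial cells should lack, was seen in 17.9% of these CNT cells and 5.41% of these 3CK cells, at median depths of 67290 and 91187 UMIs before thinning. The IGFBP4 share of CNT lies below the collagen share of the same cells and by itself is not read as more than background, and that of 3CK lies above it. COL1A1 is the more abundant gene in mesenchymal cells (3010 CPM beside 58.8 CPM in CNT). Its share therefore does not measure the background of IGFBP4. By level, epithelial IGFBP4 in CNT was at 46.5% of the mesenchymal level, well above COL1A1.

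IGFBP5 shares were 2.17% and 0.64%, under the COL1A1 share in both libraries and, by themselves, not read as more than background. COL1A1 is the more abundant gene in mesenchymal cells (3010 CPM beside 143 CPM in CNT), and by level IGFBP5 was not under it, as given above. IGFBP3 was seen in 33.6% and 30.7%, and IGFBP2 in 29.4% and 33.2%, and the intervals of the libraries overlap for each of these 2 genes. IGFBP7 was seen in 15.3%, under the collagen share of CNT, and 22.2%. In mesenchymal cells of CNT it was at 757 CPM, also less abundant than COL1A1. Thinning left out 598 and 240 shallower cells.

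Without thinning, and with the shallower cells included, IGFBP4 was seen in 35.1% of 1660 and 59.9% of 1016 epithelial cells. The unthinned shares were 64.2% and 72.7% for IGFBP6, 70.2% and 65.8% for IGFBP3, 46.9% and 58.5% for IGFBP2, 43.4% and 61.3% for IGFBP7, and 7.17% and 2.56% for IGFBP5. The order of the libraries in IGFBP6 differed between the thinned and the unthinned shares, which hold different cells.

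Among epithelial cells with at least 10000 UMIs (1013 in CNT, 730 in 3CK), the median IGFBP4 level per cell was 10.2 CPM in CNT and 40.3 CPM in 3CK. No IGFBP4 UMI was found in 45.2% and 22.3% of them. IGFBP6 had a median of 158 and 93.2 CPM and was without a UMI in 7.40% and 9.86%, the same order as in the thinned shares. The IGFBP6 values of single cells ranged up to 3571 CPM in CNT and 2827 CPM in 3CK, so the cells of both libraries overlap over most of their range.

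The difference in IGFBP4 was present across the range of TTR, by which these deep epithelial cells were divided. Cells with TTR at 200 or more UMIs per 10000 (790 in CNT, 245 in 3CK) had 24.3 and 53.5 CPM of IGFBP4. Cells with TTR from 20 to 200 (178 and 377) had 31.5 and 95.6 CPM. Cells under 20 (45 and 108) had 69.5 and 103.9 CPM, so IGFBP4 was higher where TTR was lower in both libraries, and the 3CK library has more of its cells in the lower ranges.

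IGFBP2 did not follow that order. It was at 795 CPM in the 45 CNT cells under 20, of which 50.4% came from the leading 10% of these cells, and at 171 and 118 CPM in the 2 higher ranges of CNT. In 3CK its levels were 143, 166 and 150 CPM from the lowest to the highest range. The 45 CNT cells low in TTR thus stood apart in IGFBP2, and also in IGFBP7 (220 CPM beside 64.4 and 66.5).

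IGFBP5 in those 45 cells was at 74.4 CPM, of which 98.8% came from the leading 10%, and at 11.2 and 7.15 CPM in the other ranges of CNT. In 3CK it was between 0.77 and 3.96 CPM in the 3 ranges. Among the 3 TTR ranges IGFBP6 was highest in the cells richest in TTR, with 320 CPM (CNT) and 248 CPM (3CK). Among cycling epithelial cells (32 in CNT, 22 in 3CK, by summed proliferation genes) IGFBP4 was at 35.1 and 198 CPM.

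**Figure D3:**
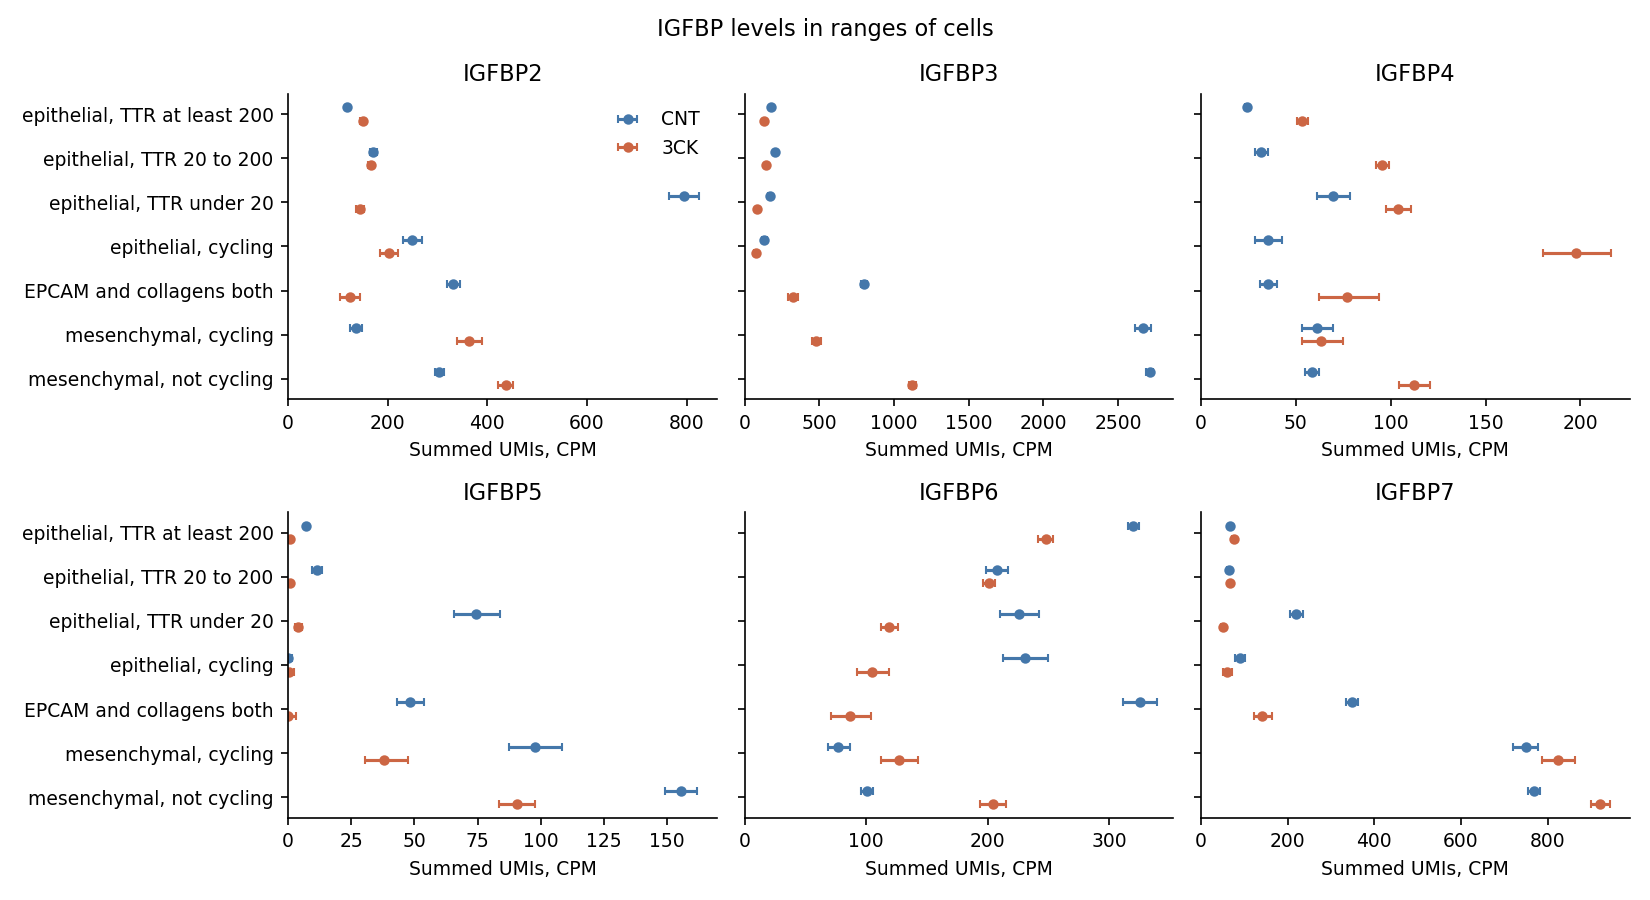
Levels of IGFBP2 to IGFBP7 in CPM within ranges of cells with at least 10000 UMIs, in CNT and 3CK, with 95% Poisson counting intervals; the ranges overlap and are not cell types. IGFBP4 is higher in 3CK than in CNT in each of the 3 TTR ranges (53.5 against 24.3 CPM in the highest), and IGFBP3 is lower in 3CK in both mesenchymal ranges shown.

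In the mesenchymal cells IGFBP3 was the member that differed most among those at 10 CPM or more. It was at 2670 CPM in CNT (52467 UMIs) and 969 CPM in 3CK (8835 UMIs), 2.76-fold lower (log2 -1.46, interval -1.49 to -1.43). IGFBP5 was at 143 and 77.9 CPM (-0.88), also lower. IGFBP6 (98.2 and 186 CPM, 0.92), IGFBP4 (58.8 and 100 CPM, 0.77), IGFBP2 (271 and 418 CPM, 0.62) and IGFBP7 (757 and 897 CPM, 0.24) were higher in 3CK.

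IGFBP1 was at 2.39 CPM in CNT, from 47 UMIs in 29 cells, and 0.439 CPM in 3CK, from 4 UMIs in 3 cells. Its log2 ratio of -2.45 has an interval from -4.38 to -0.995. Of the 6 members tested, 0 were at least 2-fold higher and 1 was at least 2-fold lower, beside 4.8% and 9.59% of 10272 genes. The members' median was 0.43, and that of all genes tested -0.12.

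**Figure D4:**
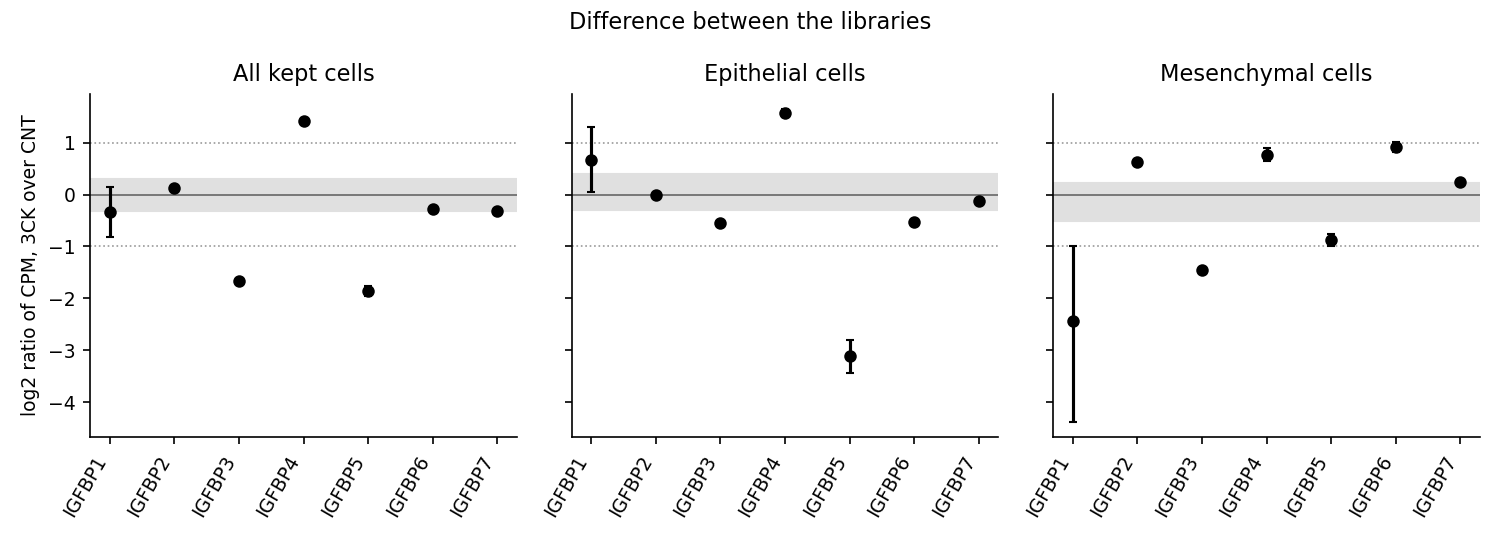
Log2 ratio of CPM in 3CK over CNT for the 7 members in all kept cells, epithelial cells and mesenchymal cells, with 95% counting intervals; the grey band spans the middle of all genes tested (lower to upper quartile) and dotted lines mark 2-fold. IGFBP3 lies below the lower line in all kept cells and in mesenchymal cells, and IGFBP4 above the upper line in all kept cells and in epithelial cells.

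The mesenchymal cells of the 2 libraries were not alike in other respects. Median MALAT1, a nuclear RNA that is relatively high in damaged cells, was 5765 CPM in CNT and 1638 CPM in 3CK. Without barcodes with MALAT1 at 300 or more per 10000, the IGFBP3 ratio was -1.48 and that of IGFBP6 0.85. COL1A1 itself, part of the rule for the class, was at 3010 CPM in CNT against 906 CPM in 3CK.

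After thinning to 5000 UMIs, IGFBP3 was seen in 85.3% of 320 mesenchymal cells of CNT (81.0 to 89.0) and 64.5% of 107 of 3CK (54.6 to 73.5). IGFBP2 was seen in 29.7% (24.7 to 35.0) and 49.5% (39.7 to 59.4), and IGFBP7 in 79.1% and 75.7%. EPCAM, which these cells should lack and which the rule kept low, was seen in 9.69% and 4.67%. Unthinned, the IGFBP3 shares were 77.2% of 574 and 87.1% of 124 cells, the other order, and these include 254 and 17 cells with under 5000 UMIs.

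The spread of IGFBP3 between mesenchymal cells was wide. Among the 311 CNT cells with at least 10000 UMIs, the 10th percentile was 101 CPM, the median 1921 CPM, the 90th percentile 7098 CPM and the highest cell 25381 CPM. Among the 106 such cells of 3CK these values were 16.9, 263, 2341 and 11425 CPM. A level over 1000 CPM was reached by 196 cells in CNT (63.0%) and 28 in 3CK (26.4%), so high IGFBP3 cells were present in both libraries at different shares.

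IGFBP7 was spread more evenly, with medians of 550 CPM in CNT and 730 CPM in 3CK. In each cell thinned to 10000 UMIs, IGFBP3 was the leading member of the family in 64.3% of CNT mesenchymal cells (58.7 to 69.6) and 27.4% of 3CK ones (19.1 to 36.9). IGFBP7 led in 20.6% (16.2 to 25.5) and 48.1% (38.3 to 58.0). IGFBP3 thus led most mesenchymal cells in CNT, and in 3CK no member led most of them.

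IGFBP3 followed the collagens from cell to cell. Its Spearman correlation with COL3A1 over mesenchymal cells of the same library, each thinned to 10000 UMIs, was 0.55 in CNT (311 cells) and 0.45 in 3CK (106 cells). With COL1A1 it was 0.46 and 0.42. The cells of a library share its depth and its free RNA, and these values are descriptions.

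Since the collagens define the class and also differed, IGFBP3 was compared within bands of the 3 collagens. In cells with 60 or more collagen UMIs per 10000 (166 in CNT, 12 in 3CK), IGFBP3 was at 4012 and 2101 CPM (log2 -0.93). In the band from 20 to 60 (89 and 50 cells) it was at 2029 and 1098 CPM (-0.89), and in the band from 5 to 20 (56 and 44 cells) at 494 and 618 CPM (0.32). Within bands the difference was thus smaller than over the whole class, and it had the other direction in the lowest band.

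IGFBP7 was higher in 3CK in each of the 3 bands, by log2 0.47, 0.35 and 0.81 from the lowest to the highest. IGFBP6 was higher by 1.50, 0.52 and 0.18, and IGFBP4 by 0.26, 0.51 and 1.00. IGFBP5 was at 1.11, -0.41 and -0.09, with no common direction. In a mesenchymal class drawn by 6 other markers (COL5A1, COL6A3, DCN, LUM, PDGFRA and PDGFRB, 526 cells in CNT and 158 in 3CK), IGFBP3 was again lower in 3CK (log2 -1.70), and IGFBP7 was at 0.01.

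**Figure D5:**
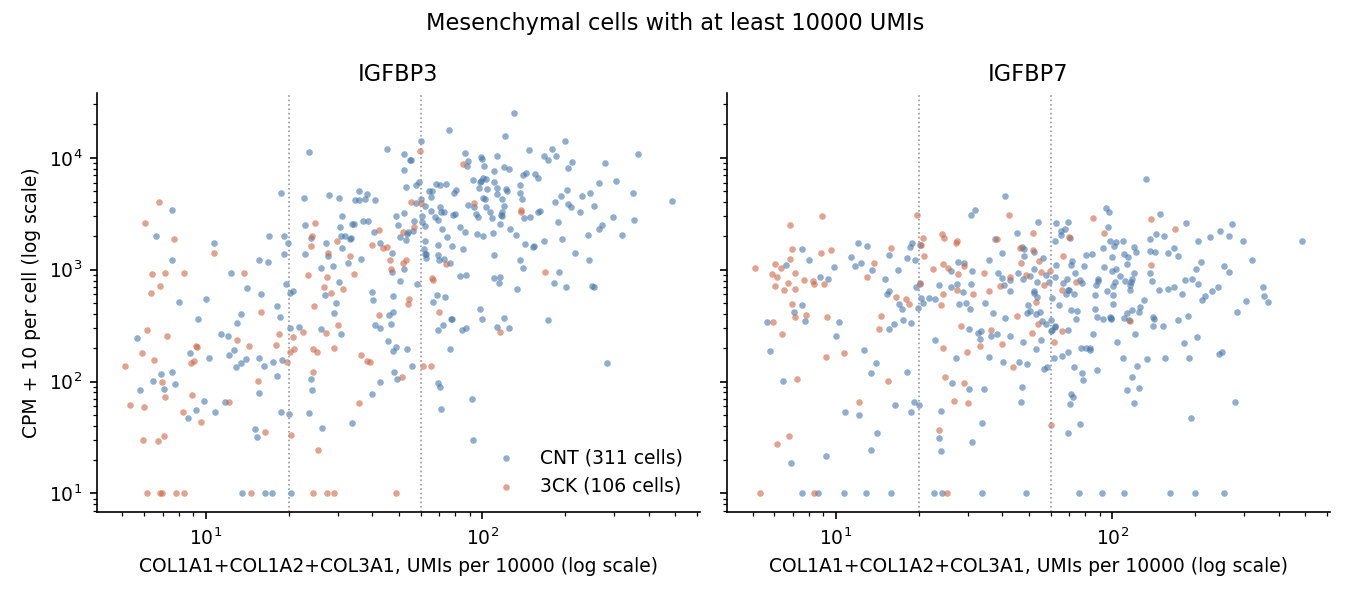
IGFBP3 and IGFBP7 level per mesenchymal cell with at least 10000 UMIs (CPM + 10, log axis) against the summed UMIs of COL1A1, COL1A2 and COL3A1 per 10000 (log axis), each point 1 cell of CNT (311) or 3CK (106); dotted lines mark the bands. IGFBP3 is higher in cells with more collagen, and only 12 of the 3CK cells lie in the highest band.

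Cycling and other ranges of the mesenchymal cells gave the same direction for IGFBP3. It was at 2666 CPM in 60 cycling cells of CNT and 479 CPM in 24 of 3CK. In cells not cycling (251 and 82) it was at 2710 and 1123 CPM. In cells with smooth muscle genes (ACTA2, DES, ACTG2 and TAGLN) at 20 or more per 10000, which were 18 and 11, IGFBP3 was at 1491 and 1287 CPM and IGFBP7 at 1272 and 1817 CPM, so IGFBP7 was highest in these cells.

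The share of mesenchymal cells and the level within them both enter the totals over all cells. Mesenchymal cells gave 74.8% of the library's IGFBP3 UMIs in CNT and 44.0% in 3CK, while their share of all UMIs was 19.3% and 9.92%. For IGFBP7 their share was 67.4% and 51.0%. Epithelial cells gave 90.3% of IGFBP6 in CNT and 77.8% in 3CK, and 59.3% and 66.9% of IGFBP4.

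In the cells of neither class, IGFBP3 was at 550 CPM in CNT against 169 CPM in 3CK (log2 -1.70), and IGFBP4 at 46.3 and 151 CPM (1.71). IGFBP6 was at 85.0 and 194 CPM (1.19) and IGFBP5 at 29.6 and 12.3 CPM (-1.26). Of 6 members, 2 were at least 2-fold higher and 2 at least 2-fold lower, beside 6.6% and 14.5% of 11864 genes. IGFBP3 and IGFBP4 thus had the same direction there as over all cells.

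Genes around the binding proteins were taken from lists of the pathway. Of the ligands and receptors, 4 of 6 reached 10 CPM over all cells and 0 differed by 2-fold, beside 6.43% higher and 7.34% lower of all genes. IGF2, the fetal growth factor, was at 70.9 CPM in mesenchymal cells of CNT and 81.0 CPM in those of 3CK, beside 2.32 and 0.97 CPM in epithelial cells. IGF1 was at 2.84 and 1.75 CPM and INS at 3.58 and 4.08 CPM over all cells.

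The receptor IGF1R was at 104 CPM in CNT against 61.5 CPM in 3CK (log2 -0.75), and in mesenchymal cells at 137 and 56.1 CPM (-1.29). IGF2R, which removes IGF2, was at 87.9 and 91.7 CPM, and the insulin receptor INSR at 28.8 and 37.2 CPM. IGF2 and IGFBP3 were thus both higher in the mesenchymal than in the epithelial class, and IGF1R was seen in both classes.

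Among the partners and proteases of the binding proteins, 6 of 8 reached 10 CPM over all cells, of which 2 were at least 2-fold higher and 2 at least 2-fold lower in 3CK (median -0.03), beside 6.43% and 7.34% of all genes. In epithelial cells 4 reached 10 CPM, with 2 higher, 1 lower and a median of 1.32 (all genes 7.88%, 7.62% and 0.07). In mesenchymal cells 5 did, with 2 higher, 2 lower and a median of -0.47 (all genes 4.8%, 9.59% and -0.12). PAPPA was at 531 CPM in mesenchymal cells of CNT and 383 CPM in those of 3CK (-0.47). STC2, a stanniocalcin that inhibits PAPPA, was at 103 and 237 CPM there (1.21) and at 8.68 and 36.4 CPM in epithelial cells (2.07). STC1, its relative, was at 27.2 and 93.7 CPM in mesenchymal cells (1.79).

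HTRA1, a secreted protease with an IGFBP-like domain, was at 160 CPM in mesenchymal cells of CNT and 76.6 CPM in those of 3CK (-1.06), and ADAM12 at 135 and 63.0 CPM (-1.10). MMP7, an epithelial metalloproteinase, was at 0.617 and 45.7 CPM in epithelial cells, from 47 and 3202 UMIs. IGFBP4, its protease PAPPA and the PAPPA inhibitor STC2 were thus all present in the summed UMIs of the mesenchymal class. Whether single cells carried them together was not tested.

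The signal transduction list had 10 of 11 genes at 10 CPM, with 0 past 2-fold and a median of 0.23 over all cells. Of all genes there, 6.43% were at least 2-fold higher and 7.34% at least 2-fold lower. In mesenchymal cells the median of the list was -0.43, with 1 of 10 genes at least 2-fold lower (all genes 9.59%). In epithelial cells it was 0.32, with 0 of 10 past 2-fold (all genes 7.88% higher and 7.62% lower). Over all cells, IRS1, an adaptor of the receptors, was at 51.3 and 97.4 CPM (0.93), SHC1 at 55.9 and 90.9 CPM (0.70), AKT1 at 67.6 and 76.8 CPM (0.18) and PIK3CA at 22.8 and 19.3 CPM (-0.23). Of 12 relatives with an IGFBP-type domain, 5 reached 10 CPM, with 1 higher, 2 lower and a median of -0.81 over all cells, beside the same 6.43% and 7.34% of all genes. In epithelial cells 3 reached it, with 1 higher, 0 lower and a median of 0.63 (all genes 7.88%, 7.62% and 0.07). In mesenchymal cells 5 did, with 0 higher, 2 lower and a median of -0.58 (all genes 4.8%, 9.59% and -0.12). CCN1 was at 93.3 and 197 CPM (1.08) and CCN2 at 125 and 166 CPM (0.40).

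A list of hypoxia response genes was also measured. In mesenchymal cells 11 of its 12 genes reached 10 CPM, with 4 at least 2-fold higher in 3CK, 0 lower and a median of 0.82, beside 4.8% higher, 9.59% lower and a median of -0.12 over all genes tested. ADM was at 75.5 and 180 CPM (1.26) and BNIP3 at 85.8 and 192 CPM (1.17), while SLC2A1 was at 115 and 103 CPM (-0.17). In epithelial cells 9 genes reached 10 CPM, with 1 higher, 2 lower and a median of -0.29 (all genes 7.88%, 7.62% and 0.07), and there SLC2A1 was at 92.3 and 26.7 CPM (-1.79). The median of the list thus had opposite signs in the classes, and its relation to the IGFBP genes was not tested.

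The genes most like each member were those with the highest Pearson's r of log2(CPM + 1) among 5707 candidate genes. The values were taken over 17 overlapping ranges of cells (9 of CNT, 8 of 3CK), which share cells and libraries. The highest of so many values over so few ranges are high by selection, and they are descriptions. IGFBP3 was most like PXDN (0.98), COLEC11 (0.98) and PROK1 (0.98). IGFBP7 was most like SMIM3 (0.98), BMP4 (0.98) and CLDN11 (0.98), and IGFBP5 most like MXRA8 (0.96), WDR13 (0.96) and C7orf50 (0.95). IGFBP4 was most like PTGES2 (0.97), MAP7D1 (0.96) and TTC1 (0.94), IGFBP6 most like MAP1LC3A (0.91), with ZDHHC24 at 0.89, and IGFBP2 most like WIPI2 (0.90), BEX4 (0.89) and FKBP1A (0.84).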

How the data were processed

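UMIs per gene and barcode were deposited by the authors as unnormalised counts, made with Cell Ranger 7.1.0 against GRCh38 per the submitters' processing notes; whether intronic reads were counted is not given in the sources used here. Features and barcodes are names only.

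Barcodes with at least 500 genes and at most 20% mitochondrial UMIs were kept, which removed 412 CNT and 52 3CK barcodes on the gene minimum and a further 306 and 175 on mitochondrial UMIs. Scrublet (scanpy 1.11.5) scored doublets, and the top 0.8% per 1000 barcodes (52 and 16) were removed. UMIs were summed per library and class and scaled to CPM. Levels carry exact Poisson, ratios binomial and shares Clopper-Pearson 95% intervals. A count of 3 UMIs, the floor, is 0.0295 CPM in CNT and 0.0327 in 3CK.

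Background counts used genes with 10 CPM in the higher group and 2-fold. With 1 library per group no test was possible. Members and lists were chosen with earlier results of these data known. All 7 members are named throughout; of the lists, the 3 most abundant genes, the largest and smallest ratio, and all ligands and receptors; other genes serve as markers, and IGF1R, PAPPA, ADAM12 and others of the lists in single classes were chosen after their values were seen. In the comparison of genes most like each member, 1 gene is not reported here. Ratios and thinning were checked on simulated data, and counts of genes past 2-fold were not. Alternatives covered filters, doublets, depth, scaling (edgeR 4.0.16 TMM), class thresholds and thinning; the MALAT1, other-marker and collagen-band ones were added after seeing the data.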

Additional observations from a re-analysis of the deposited data

Results flagged for a closer look

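For 3 members the direction of the difference between the libraries was opposite in the epithelial and the mesenchymal cells. With 1 library per group these differences between classes were not tested. IGFBP6 had a log2 ratio of 3CK over CNT of -0.525 in epithelial cells and 0.92 in mesenchymal cells, and in the cells of neither class it was 1.19. IGFBP7 had -0.12 in epithelial and 0.24 in mesenchymal cells, but without the epithelial cells that carry collagens the epithelial value was 0.52, so both classes then had 1 direction. IGFBP1 had 0.67 in epithelial cells, from 39 UMIs in CNT and 57 in 3CK, and -2.45 in mesenchymal cells, from 47 and 4 UMIs. A single epithelial cell gave 24 of the 57 UMIs.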

How the results depend on the processing

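No paired analysis was possible because each group is 1 library, and for the same reason no library could be left out. The directions of IGFBP3, IGFBP4 and IGFBP5 over all cells held under the 9 alternatives run, with log2 ratios from -1.93 to -1.57, 1.33 to 1.52 and -2.14 to -1.73, and each stayed past 2-fold. TMM factors moved every gene's log2 ratio by 0.18 in mesenchymal cells, and between mesenchymal and epithelial cells by -0.39 in CNT and -0.18 in 3CK. A total without mitochondrial, ribosomal and the 50 most abundant genes moved it by -0.10 over all cells, -0.12 in epithelial cells and, between the classes in CNT, -0.11. Class counts moved more. In epithelial cells the count of members at least 2-fold lower, 1 as reported, was 2 with the mean of per-cell CPM (IGFBP3 and IGFBP5), and 0 with doubled class thresholds and 0 without collagen-bearing epithelial cells, where IGFBP5 drops under 10 CPM. Epithelial IGFBP3 ranged from -1.54 to 0.01 and IGFBP2 from -0.12 to 0.17. In mesenchymal cells the count at least 2-fold higher, 0 as reported, was 1 with TMM factors (IGFBP6), 2 by 6 other markers (IGFBP4 and IGFBP6) and 2 in the collagen band from 5 to 20 per 10000 (IGFBP5 and IGFBP6). The count at least 2-fold lower, 1 as reported, was 2 by 6 other markers (IGFBP3 and IGFBP5) and 0 in each of the 3 collagen bands, and mesenchymal IGFBP3 reversed to 0.32 in the lowest band, which holds 56 and 44 cells. In CNT the count of members at least 2-fold lower in mesenchymal than in epithelial cells, 1 as reported, was 0 with the mean of per-cell CPM. The cause of these changes was not tested beyond the smaller sets of cells that the thresholds and bands leave.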
